A study of Mus musculus with 12 samples.

Results

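The genes of tryptophan, kynurenine and NAD metabolism were examined in liver RNA of 12 mice, as 9 named members matched by symbol among the 11289 genes of the deposited table: Tdo2, Afmid, Kmo, Kynu, Haao, Acmsd, Qprt, Nampt and Nnmt. All 9 were found, and none was listed at 0 in any mouse. The mice were C57BL/6J, aged 8 to 10 weeks per the sample labels (the study's methods give a younger range and male animals), with 4 mice in each of 3 groups. Control mice are labelled without a treatment. Con A mice received the plant lectin concanavalin A, which activates T cells, as a single 15 mg/kg dose through the tail vein, followed 30 min later by PBS. Con A + MSCs mice received the same dose and, after the same delay, mesenchymal stem cells of human umbilical cord Wharton's jelly, 2000000 cells per mouse in the labels (whose exponent is not set as one) and fewer in the study's methods. Liver was taken 24 h later. The question put by the design is which transcripts changed after Con A and whether the infused cells altered that change.

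In the liver, most tryptophan that is not built into protein is broken down along the kynurenine pathway. Tdo2 opens the ring of tryptophan, Afmid releases kynurenine from the product, Kmo hydroxylates kynurenine, Kynu cleaves the hydroxylated product and Haao converts it into an unstable intermediate. That intermediate is a fork, from which Qprt leads to NAD by way of quinolinate and Acmsd diverts carbon to complete oxidation. NAD is also remade from nicotinamide by Nampt, the rate-limiting enzyme of salvage, while Nnmt methylates nicotinamide and so removes it from salvage.

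To place the members on the genome, the transcripts named in the table were located in mm10. Tdo2 lies at chr3:81957090-81975750 on the minus strand, Nampt at chr12:32820335-32853369 on the plus strand, Afmid at chr11:117825924-117839908 on the plus strand and Haao at chr17:83831356-83846790 on the minus strand. The 60 bases just before the start of transcription are shown for these genes because a pair of them rose after Con A and the other pair fell. They are RefSeq promoter sequences of GRCm38.p6, written 5′ to 3′ on the strand of the gene, with each CpG in capitals, and promoters of 7 of the 9 members were matched.
Tdo2 (rose), chr3:81975729-81975788, minus strand: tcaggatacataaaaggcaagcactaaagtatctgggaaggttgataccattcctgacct
Nampt (rose), chr12:32820275-32820334, plus strand: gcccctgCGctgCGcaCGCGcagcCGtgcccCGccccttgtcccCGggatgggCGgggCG
Afmid (fell), chr11:117825859-117825918, plus strand: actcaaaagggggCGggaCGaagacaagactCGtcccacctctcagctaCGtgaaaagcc
Haao (fell), chr17:83846791-83846850, minus strand: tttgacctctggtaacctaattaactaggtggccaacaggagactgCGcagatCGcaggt
The promoters that rose were unlike each other in base composition. The 250 bases before the start held 3 CpG in Tdo2 and 27 in Nampt, against a median of 6 over the 32851 promoters of the RefSeq table. The promoters that fell lay between them, with 15 CpG in Afmid and 6 in Haao. Of 6 motifs searched on both strands, from 250 bases before to 50 after the start, 4 had no match in the 7 promoters. These were the E-box CACGTG, the C/EBP motif TTGCNNAA, the NF-κB motif and the HNF1 motif, whose letters were present in 7.15%, 10.8%, 8.46% and 0.00913% of all promoters. The STAT motif TTCNNNGAA (8.3% of all promoters) was present in Qprt, and the glucocorticoid receptor motif AGAACA (19% of all promoters) in Haao and Kmo. The RefSeq start used for Kmo lies 11812 bases inside the Kmo transcript of the table, and that for Qprt 197 bases inside. These windows are therefore not at the starts of the transcripts in the table. The RefSeq start of Tdo2 lies 22 bases inside its transcript, so the end of the stretch shown overlaps that transcript. A match or its absence describes these letters in this window only.

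The deposited values are scores that the authors had normalized between mice, so they give a gene's place among other genes of the same mouse and not a number of reads. Their totals ranged from 17649654 to 17657159 and the depth of sequencing is unknown. Alb stood at the largest value, 341028, in all 12 mice, and the liver label was met by all 6 hepatocyte markers. The summed score of these 6 markers was 740097 to 1028930 in Control mice, 603202 to 638289 in Con A mice and 609691 to 632195 in Con A + MSCs mice. Only 2 of the 6 were called lower after Con A, Apoa1 and Ttr, while Alb and Cps1 had 1 score in all 12 mice, and the highest Control sum held Ttr at the largest value of the scale in Control mouse 1. The 7 monocyte and neutrophil markers summed to 285 to 433, 1408 to 2339 and 1426 to 2502 in the same order, and 7 of the 7 rose after Con A. The 7 macrophage markers summed to 3626 to 6104, 1103 to 1538 and 458 to 1492. After Con A 6 of them fell and 1, Cd68, rose. Of the 9 T and NK cell markers only 3 were in the table, with sums of 16 to 50, 404 to 817 and 426 to 740, and all 3 rose after Con A. Sinusoidal endothelial markers (6 of 6 in the table) summed to 2082 to 3054, 903 to 1250 and 1123 to 1354, with 4 lower and 1 higher after Con A. Stellate and fibroblast markers (6 of 6) summed to 4647 to 7486, 6021 to 6979 and 4396 to 9298, and 2 of them, Lrat and Reln, fell after Con A. The 2 cholangiocyte markers in the table (of 4) summed to 170 to 274, 348 to 1011 and 302 to 426, and 1 of them rose after Con A. None of the 4 B cell markers was analysed here. The part these shifts in cell make-up play in the changes below was not tested, and in whole liver fewer cells of a type and less RNA per cell cannot be told apart.

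After Con A, 6 of the 9 members were called and they moved in both directions. Calls were made by limma on log2(score + 1) and needed both a fold change above 1.5 and a p-value under 0.05 after Benjamini-Hochberg adjustment over all genes. Tdo2, Nampt and Nnmt rose, Afmid, Kynu and Haao fell, and Kmo, Acmsd and Qprt were not called. The share called over all genes was 38.8%, with 19.5% higher and 19.2% lower. The groups did not overlap for the same 3 rising and 3 falling members, as for 50.4% of all genes (27.1% higher and 23.4% lower). The median log2 fold change was -0.10 over the members and 0.05 over all genes. With the infused cells, in Con A + MSCs against Con A, 3 members were called, Kynu and Haao higher and Nampt lower, where 8.58% of all genes were called (4.2% higher and 4.38% lower). Kmo and Haao lay higher and Nampt lower without overlap, as did 11.9% and 11.6% of all genes, and the median was 0.37 over the members and 0.00 over all genes. Against Control, the Con A + MSCs mice had 6 members called, Tdo2, Nampt and Nnmt higher and Afmid, Kynu and Haao lower, where 26.7% of all genes were called (13.6% higher and 13.1% lower). There, 4 members lay higher and 2 lower without overlap, beside 20.6% and 17.3% of all genes, and the median was 0.08 over the members and 0.04 over all genes. The 3 comparisons share mice pairwise, so their values are set side by side and are not independent.

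**Figure D1:**
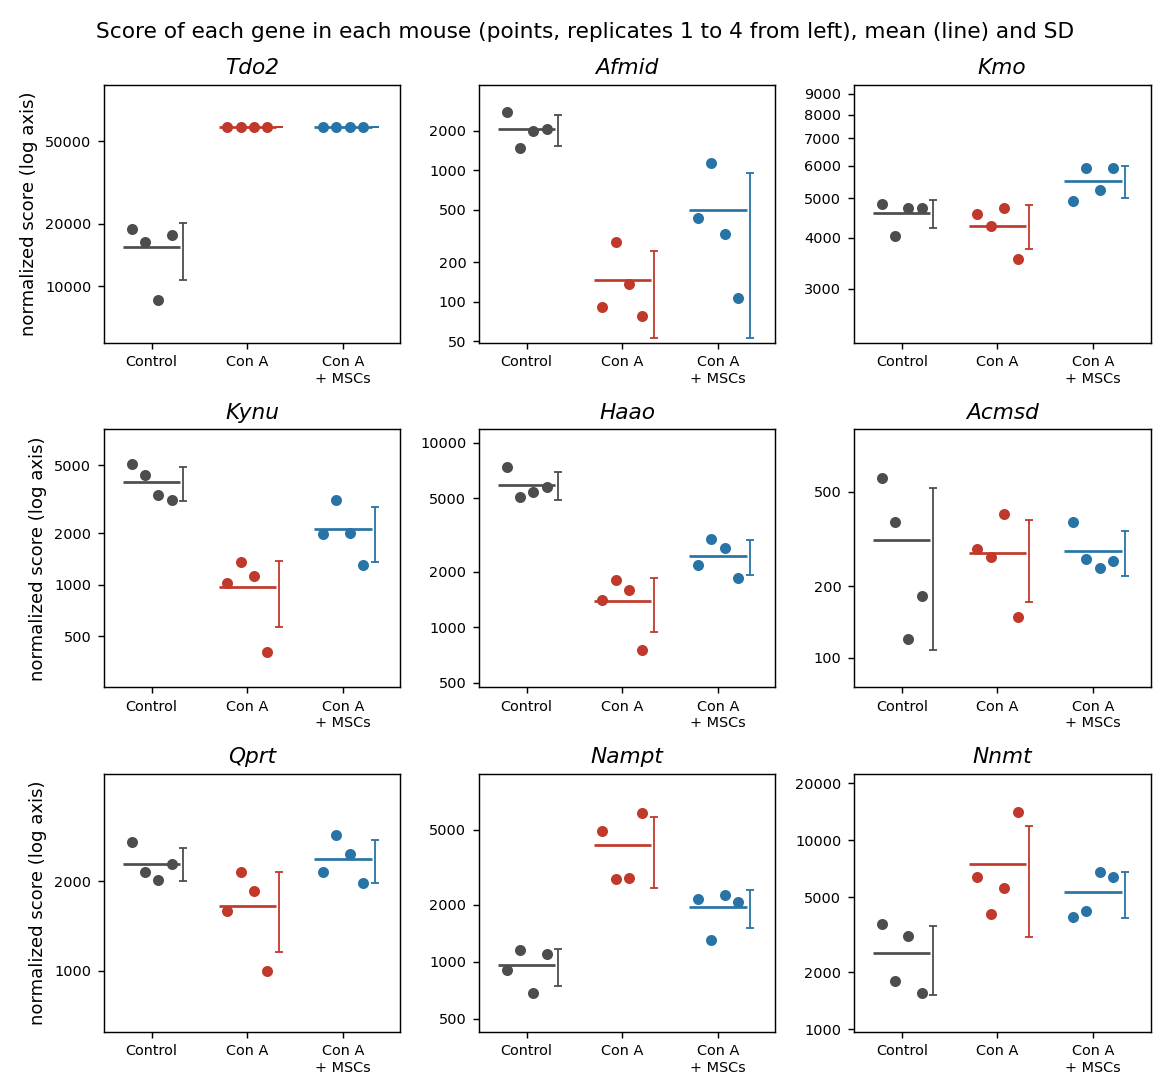
Normalized score (log axis) of the 9 genes in each mouse, with 4 mice per group as points (replicates 1 to 4 from left), the group mean as a line and the SD as a bar. Tdo2 sits at the same value in all 8 mice given Con A, Nampt lies highest in Con A mice, and Afmid, Kynu and Haao lie lowest there.

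At the entry of the pathway, Tdo2 rose after Con A and had equal scores in both groups given Con A. Its scores were 18948, 16364, 8544 and 17674 in the Control mice and 58210 in every one of the 4 Con A and 4 Con A + MSCs mice. Both treated groups thus lay above all Control mice, of which mouse 3 was the lowest. The log2 fold change was 1.98 ± 0.21 (SE; limma, adjusted p = 1.2e-05) for Con A against Control, a fold of 3.96. It was 0 ± 0.21 for Con A + MSCs against Con A, with a 95% interval of -0.46 to 0.46. The equal scores follow from the scale, since high scores come in steps of 10 genes and Tdo2 stood in the step from 57910 to 58393, with 30 genes above it, in all 8 mice. The nearest steps lay 1.25-fold above and 1.29-fold below, so smaller differences between these mice could not be seen, and the error of Tdo2 comes from the Control mice and from the other genes. Ido2, a related dioxygenase, fell after Con A, from 1470, 1074, 1418 and 1649 in Control to 656, 944, 894 and 116 in Con A mice (log2 fold change -1.46 ± 0.51, limma adjusted p = 0.0278). The Ido2 scores in Con A + MSCs mice were 940, 1289, 948 and 1005 and overlapped with both other groups. The Ido2 call after Con A was lost without Control mouse 1, 3 or 4 (adjusted p up to 0.0636), and its log2 fold change was -0.75 without Con A mouse 4. Ido1 was not analysed here.

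The next step, carried by Afmid, showed the largest fall among the members. Afmid had scores of 2792, 1472, 1992 and 2062 in Control, 92, 284, 136 and 78 in Con A and 434, 1146, 326 and 106 in Con A + MSCs mice. Every treated mouse lay below every Control mouse, while the Con A and Con A + MSCs groups overlapped. The log2 fold change was -3.96 ± 0.58 (SE; limma, adjusted p = 0.000123) after Con A, which is 15.6-fold lower. Between the Con A groups it was 1.48 ± 0.58 (limma, adjusted p = 0.0953), which was not called, although it was called without Con A mouse 2 (1.86, adjusted p = 0.0454) or without Con A + MSCs mouse 4 (2.07, adjusted p = 0.0241). Against Control it remained lower in Con A + MSCs mice, by -2.48 ± 0.58 (limma, adjusted p = 0.00507). The Afmid transcript shares 83 exon bases with Tk1 on the opposite strand and 1566 with the protein-coding model Gm20708 on the same strand, and reads of such genes may not be separable. Tk1, thymidine kinase, had scores of 346 to 863 in Control, 19 to 72 in Con A and 62 to 218 in Con A + MSCs mice.

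Kmo was not called in any comparison. It is encoded at chr1:175620381-175659962, and its scores were 4834, 4040, 4743 and 4743 in Control, 4562, 4285, 4743 and 3542 in Con A and 4932, 5916, 5250 and 5916 in Con A + MSCs mice. The Con A and Control groups overlapped (log2 fold change -0.10 ± 0.12, 95% interval -0.37 to 0.16), and this interval did not reach 1.5-fold in either direction. The Con A + MSCs mice lay above all mice of both other groups, by 0.37 ± 0.12 over Con A (limma, adjusted p = 0.0597) and 0.26 ± 0.12 over Control (adjusted p = 0.101), and neither difference was called. Non-overlap of this kind occurred for 23.5% and 37.9% of all genes in these comparisons.

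Kynu and Haao, which act one after the other below Kmo, fell to a similar degree after Con A and lay between the other groups in Con A + MSCs mice. Kynu (chr2:43555329-43682715) had scores of 5047, 4386, 3366 and 3130 in Control, 1020, 1362, 1127 and 404 in Con A and 1978, 3130, 2004 and 1310 in Con A + MSCs mice. All Con A mice were below all Control mice, but Con A + MSCs mouse 4 was below Con A mouse 2 and Con A + MSCs mouse 2 equalled Control mouse 4. The Kynu log2 fold change was -2.13 ± 0.35 after Con A (limma, adjusted p = 0.000277), 1.17 ± 0.35 in Con A + MSCs against Con A (adjusted p = 0.0471) and -0.96 ± 0.35 in Con A + MSCs against Control (adjusted p = 0.0432). Haao had scores of 7356, 5047, 5402 and 5754 in Control, 1400, 1810, 1600 and 757 in Con A and 2168, 3012, 2699 and 1844 in Con A + MSCs mice. Its 3 groups did not overlap at all. The Haao log2 fold change was -2.14 ± 0.25 after Con A (limma, adjusted p = 2.3e-05), 0.85 ± 0.25 in Con A + MSCs against Con A (adjusted p = 0.0451) and -1.29 ± 0.25 in Con A + MSCs against Control (adjusted p = 0.00155). Between the Con A groups, the calls of Kynu and Haao were each lost in 9 of 12 fits with a mouse left out and kept without Control mouse 1, Con A mouse 2 or Con A + MSCs mouse 4. They were also lost with only the 8 mice compared (adjusted p = 0.0798 for Kynu and 0.0734 for Haao) and with eBayes without a trend (0.0565 and 0.0534).

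At the fork below Haao, neither branch enzyme was called in any comparison. Acmsd (chr1:127729413-127767978), the enzyme of the oxidative branch, had low and scattered scores of 573, 374, 120 and 182 in Control, 287, 265, 404 and 148 in Con A and 372, 261, 238 and 256 in Con A + MSCs mice. The groups overlapped, and the interval of the log2 change after Con A ran from -0.93 to 0.91 and thus went past 1.5-fold both ways. An antisense gene, 2900009J06Rik, shares 188 exon bases with the Acmsd transcript. Qprt (chr7:127107114-127122226), the last enzyme particular to the route into NAD, had scores of 2700, 2148, 2026 and 2291 in Control, 1592, 2148, 1860 and 996 in Con A and 2148, 2870, 2474 and 1978 in Con A + MSCs mice. The Con A group was the lowest but overlapped with both others, through mouse 2 at 2148. Its log2 fold change after Con A was -0.52 ± 0.21 (limma, adjusted p = 0.0494), within the p threshold but under 1.5-fold. Without Con A mouse 2 it was -0.67 (adjusted p = 0.0166) and without Con A mouse 3 -0.60 (adjusted p = 0.0458), and in both cases Qprt was called. With the infused cells it was higher than in Con A mice by 0.56 ± 0.21 (limma, adjusted p = 0.0819), and it was called only without Con A mouse 2. Against Control the difference was 0.04 ± 0.21, with an interval of -0.41 to 0.49.

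In NAD salvage, Nampt rose after Con A and was lower with the infused cells. Nampt had scores of 902, 1156, 684 and 1106 in Control, 4932, 2730, 2789 and 6158 in Con A and 2164, 1302, 2266 and 2080 in Con A + MSCs mice. The 3 groups did not overlap, with Con A highest and Control lowest. The log2 fold change was 2.05 ± 0.28 after Con A (limma, adjusted p = 7.1e-05), a fold of 4.13. It was -1.03 ± 0.28 in Con A + MSCs against Con A (adjusted p = 0.0369) and 1.02 ± 0.28 in Con A + MSCs against Control (adjusted p = 0.0118). The call between the Con A groups was lost in 5 of 12 fits with a mouse left out, those without Con A mouse 1 or 4 or Con A + MSCs mouse 1, 2 or 3 (adjusted p up to 0.108), and with only the 8 mice compared (adjusted p = 0.0585). Summed monocyte and neutrophil markers were 285 to 433 in Control, 1408 to 2339 in Con A and 1426 to 2502 in Con A + MSCs mice, and their part in the Nampt values was not tested.

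Nnmt (chr9:48591877-48605153) rose after Con A as well, but its difference between the Con A groups was within the spread. Its scores were 3608, 1791, 3104 and 1548 in Control, 6356, 4060, 5608 and 14006 in Con A and 3936, 4224, 6796 and 6356 in Con A + MSCs mice. All treated mice lay above all Control mice, while the treated groups overlapped and Con A mouse 4 was far above the rest. The log2 fold change was 1.51 ± 0.37 after Con A (limma, adjusted p = 0.00418) and -0.37 ± 0.37 in Con A + MSCs against Con A (adjusted p = 0.494, interval -1.17 to 0.43). Against Control, Con A + MSCs mice were higher by 1.13 ± 0.37 (adjusted p = 0.027), which was not called without Control mouse 2 (adjusted p = 0.0761), Control mouse 4 (0.0836), Con A + MSCs mouse 3 (0.0784) or Con A + MSCs mouse 4 (0.0677).

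**Figure D2:**
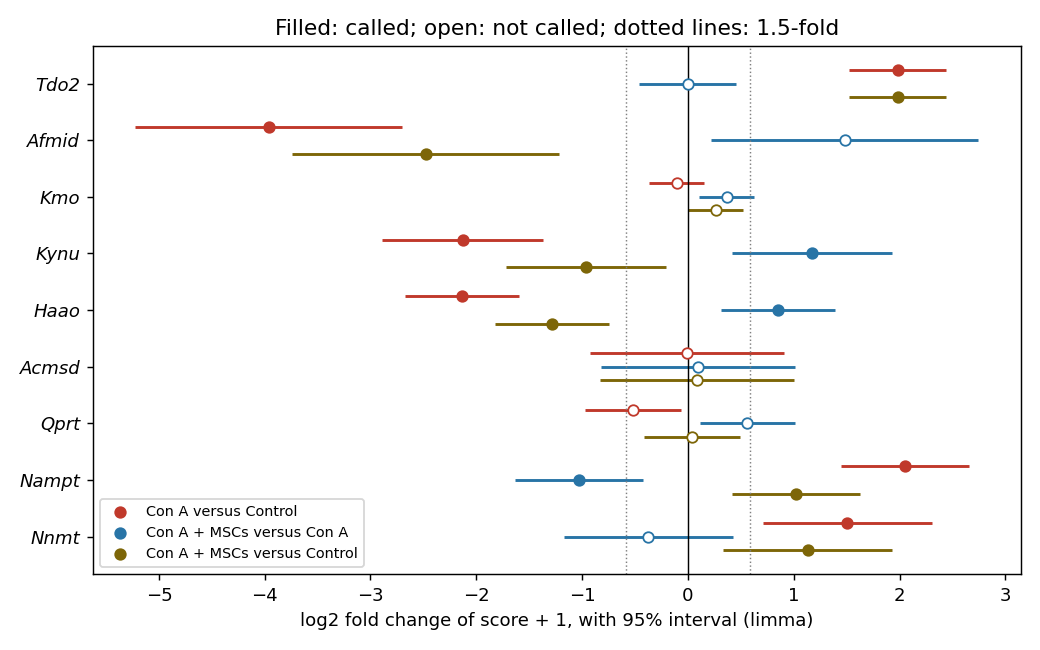
Log2 fold change of score + 1 with its 95% interval by limma, for the 9 genes in the 3 comparisons, with filled points for called and open points for genes not called. After Con A (red) Tdo2, Nampt and Nnmt lie to the right of 0 and Afmid, Kynu and Haao to the left, and with the infused cells (blue) Tdo2 lies at 0.

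The calls of the 6 members after Con A were kept with any 1 mouse left out, whereas those of Kynu, Haao and Nampt between the Con A groups were not. With each of the 12 mice left out in turn, 6 or 7 members were called in Con A against Control. Between the Con A groups the number was 3 without Control mouse 1, 1 without Control mouse 2, 3 or 4, 0 without Con A mouse 1 or 4, 5 without Con A mouse 2 and 1 without Con A mouse 3. It was 0 without Con A + MSCs mouse 1, 2 or 3 and 4 without Con A + MSCs mouse 4. The direction of Kynu, Haao and Nampt was kept in each of these fits, with log2 fold changes of 0.79 to 1.38, 0.58 to 1.00 and -1.20 to -0.81. Over all genes the number called between the Con A groups ranged from 7 to 1575 in these fits. At a fold change above 2, met by 21.2%, 3.13% and 13.6% of all genes in Con A against Control, Con A + MSCs against Con A and Con A + MSCs against Control, 6, 2 and 5 members were called. At an unadjusted p (39.5%, 15% and 28.2% of all genes) the numbers were 6, 4 and 6. The Kynu difference between Con A + MSCs and Control was not called in 9 of the 12 fits, those without any 1 of the 4 Control mice, Con A mouse 1 or 3, or Con A + MSCs mouse 1, 3 or 4, with adjusted p up to 0.121.

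Mice of a group differed in a patterned way. Con A mouse 4 was the lowest of its group in 6 members (Afmid, Kmo, Kynu, Haao, Acmsd and Qprt) and the highest in the other 2 that varied, Nampt and Nnmt. Con A mouse 2 was the opposite, highest in Afmid, Kynu, Haao and Qprt and lowest in Nampt and Nnmt. Among Con A + MSCs mice, mouse 2 was highest in the same 4 enzymes and lowest in Nampt, and mouse 4 was lowest in those 4. Control mouse 1 was highest in 8 of the 9 members. Without Con A mouse 4 the number of members called after Con A stayed at 6.

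The balance between steps was described by the difference of log2 scores of a pair of genes within each mouse, for which no test was made. Nampt minus Qprt, salvage against the route from tryptophan, was -1.58, -0.89, -1.57 and -1.05 in Control, 1.63, 0.35, 0.58 and 2.63 in Con A and 0.01, -1.14, -0.13 and 0.07 in Con A + MSCs mice. Con A mice lay above both other groups, which overlapped with each other. Kmo minus Kynu was 0.23 ± 0.37 (SD, n = 4) in Control, 2.25 ± 0.62 in Con A and 1.45 ± 0.53 in Con A + MSCs mice, with both treated groups above all Control mice. The log ratios Qprt minus Acmsd and Nampt minus Nnmt overlapped in all 3 comparisons. These differences compare mice, not the levels of the genes with each other, since the scores are not per length.

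**Figure D3:**
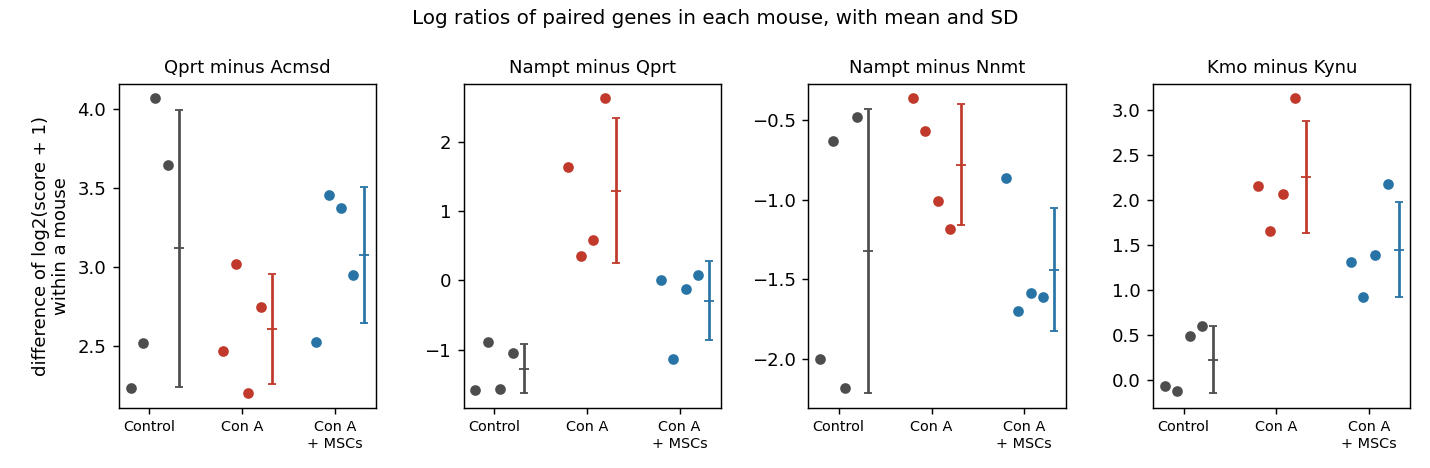
Difference of log2(score + 1) between paired genes within each mouse, with 4 mice per group as points and the mean and SD beside them. Nampt minus Qprt lies at 0.35 or above in all Con A mice and at 0.07 or below in all others, and Kmo minus Kynu separates both treated groups from Control.

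Other genes of the pathway were described from lists of 74 genes, of which 62 were in the table. Of these, 25 fell, 12 rose and 25 were not called after Con A, where 38.8% of all genes were called (19.2% lower and 19.5% higher), with a median log2 fold change of -0.39 beside 0.05 over all genes. With the infused cells 8 were higher, 6 lower and 48 not called against Con A, where 8.58% of all genes were called, with a median of 0.14 beside 0.00. Those 14 calls became 0 without Con A mouse 1 or Con A + MSCs mouse 2 or 3, 4 without Con A mouse 4, 8 without Con A + MSCs mouse 1, 9 without Con A mouse 3 and 22 without Con A mouse 2. Against Control, 8 were higher and 13 lower in Con A + MSCs mice, where 26.7% of all genes were called. The lists below are short, and their counts are descriptions without a test.

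Among the other enzymes of the kynurenine pathway, 4 of 6 fell after Con A and 0 rose, beside 19.2% lower and 19.5% higher over all genes. Aadat, an aminotransferase that turns kynurenine into kynurenic acid, had scores of 1629, 965, 1150 and 1164 in Control, 333, 501, 430 and 328 in Con A and 746, 1088, 838 and 538 in Con A + MSCs mice. It fell by 1.62 on the log2 scale after Con A (limma, adjusted p = 7.1e-05) and was higher by 0.99 in Con A + MSCs than in Con A mice (adjusted p = 0.0252), the 1 call of this list between the Con A groups, which was lost without Con A mouse 1 or 4 or Con A + MSCs mouse 2 or 3. Of the 5 genes of the glutarate branch below Acmsd, 4 fell after Con A (19.2% of all genes) and 2 were higher with the infused cells (4.2% of all genes). Aldh8a1 (-1.02 after Con A) is in both this list and that of the other kynurenine enzymes, and is counted as a fall in each. Dhtkd1, a dehydrogenase of 2-oxoadipate, changed by -2.79 ± 0.40 after Con A (limma, adjusted p = 9.9e-05) and by 1.49 ± 0.40 in Con A + MSCs against Con A (adjusted p = 0.0355), the second lost without Con A mouse 1 or 4 or Con A + MSCs mouse 1, 2 or 3. Hadh, of fatty acid oxidation, changed by -1.66 ± 0.33 and 0.98 ± 0.33, the second not called (adjusted p = 0.0614).

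Among other genes of NAD synthesis and salvage, 5 of 10 fell, 1 rose and 4 were not called after Con A, where 38.8% of all genes were called, and 0 of 10 were called by limma between the Con A groups, where 3 of 10 had an unadjusted p below 0.05 and 1 of these also passed 1.5-fold. Over all genes, 8.58% were called there, 34.6% had an unadjusted p below 0.05 and 15% also passed 1.5-fold. The gene that rose was Pnp, a purine nucleoside phosphorylase that also frees nicotinamide from its riboside. Pnp had scores of 1826, 2158, 2460 and 2176 in Control and 7384, 6796, 6976 and 4956 in Con A mice (log2 fold change 1.59 ± 0.16, limma adjusted p = 8.9e-06). Naprt1, which starts salvage from nicotinic acid, fell by 0.95 on the log2 scale (adjusted p = 0.0289), from 1984 to 2372 in Control to 1374, 1759, 1633 and 458 in Con A mice. The Naprt1 call was lost without Con A mouse 4, the lowest (-0.50), and without Control mouse 1, 2 or 3.

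Of the 22 NAD-consuming enzymes in the table, 7 rose and 3 fell after Con A and 12 were not called, a share near the 38.8% called over all genes, and the list median was 0.10 beside 0.05. Of the 14 ADP-ribosyltransferases in the list, a family set apart after its values were seen, 7 rose (19.5% of all genes) and 7 were not called (Parp1, Parp2, Parp4, Parp6, Parp16, Tnks and Tnks2, with log2 fold changes of -0.68 to 0.45). The largest rises were those of Parp11 (2.19 ± 0.20, limma adjusted p = 3.6e-06) and Parp14 (2.02 ± 0.14, adjusted p = 4.8e-07), interferon-responsive members of that family. Parp14 had scores of 690, 876, 909 and 817 in Control, 3730, 2808, 3112 and 3730 in Con A and 1941, 1520, 2016 and 2048 in Con A + MSCs mice, so that the 3 groups did not overlap. Between the Con A groups 3 of the 22 NAD consumers were higher, 3 lower and 16 not called, where 4.2% and 4.38% of all genes were higher and lower. Parp14 was lower in Con A + MSCs than in Con A mice by -0.83 ± 0.14 (limma, adjusted p = 0.0174), a call lost without Con A mouse 1 or Con A + MSCs mouse 2 or 3, while Parp11 was not called there (-0.35 ± 0.20, adjusted p = 0.236). The other calls lower in Con A + MSCs than in Con A mice were Parp12 (-0.60, adjusted p = 0.0254) and Tnks (-1.15, adjusted p = 0.0353), lost in 4 and 6 of 12 fits with a mouse left out. Both were lost without Con A mouse 1 or Con A + MSCs mouse 2 or 3, Parp12 also without Con A + MSCs mouse 4, and Tnks also without Con A mouse 3 or 4 or Con A + MSCs mouse 1. The 3 that fell after Con A (19.2% of all genes), named after their values were seen, were the sirtuins Sirt3 (-1.56), Sirt5 (-1.27) and Sirt7 (-0.66). The other 4 sirtuins in the table were not called, with log2 fold changes of 0.27 for Sirt1, -0.29 for Sirt2, -0.54 for Sirt4 and 0.17 for Sirt6. Of the 7 sirtuins, Sirt3 (0.95), Sirt4 (0.60) and Sirt5 (0.81) were called higher in Con A + MSCs than in Con A mice (limma, adjusted p = 0.022, 0.0478 and 0.0369), where 4.2% of all genes were called higher. These calls were lost in 3, 10 and 6 of 12 fits with a mouse left out, all 3 of them without Con A mouse 1 or Con A + MSCs mouse 2 or 3. Sirt5 was also lost without Con A mouse 3 or 4 or Con A + MSCs mouse 1, and Sirt4 was kept only without Control mouse 1 or 4. The Sirt7 call after Con A was lost without Control mouse 1 or Con A mouse 4.

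Among genes of tryptophan transport and other fates, 4 of 10 fell and 3 rose after Con A, beside 19.2% and 19.5% of all genes. Inmt, an indoleamine and thioether methyltransferase, had scores of 10336, 9389, 5730 and 9848 in Control, 40, 26, 36 and 287 in Con A and 68, 210, 77 and 28 in Con A + MSCs mice. Its log2 fold change was -7.20 ± 0.69 after Con A (limma, adjusted p = 5.3e-06), and it was not called between the Con A groups (0.37 ± 0.69, adjusted p = 0.732). Maob, a monoamine oxidase, fell by 2.53 after Con A (adjusted p = 3.4e-05) and was higher by 1.23 with the infused cells (adjusted p = 0.0313), the latter lost without Con A mouse 1 or 4 or Con A + MSCs mouse 1, 2 or 3. In this list 1 gene was higher and 2 lower between the Con A groups, where 4.2% and 4.38% of all genes were. The 2 lower ones, named after their values were seen, were Slc7a5 (-0.87, adjusted p = 0.027) and Slc3a2 (-0.71, adjusted p = 0.0461), the chains of an amino acid transporter, without overlap. Both had risen after Con A, by 1.36 and 1.12. The call of Slc7a5 between the Con A groups was lost without Con A mouse 1 or 4 or Con A + MSCs mouse 2 or 3, and that of Slc3a2 in 9 of 12 fits, being kept without Control mouse 1, Con A mouse 2 or Con A + MSCs mouse 1. In the list for nicotinamide oxidation and the methyl donor, 4 of 6 fell and 1 rose after Con A, beside the same shares. Aox3, an aldehyde oxidase of the liver, had scores of 2408, 2776, 4022 and 3186 in Control, 44, 298, 56 and 46 in Con A and 527, 1405, 610 and 126 in Con A + MSCs mice. Con A mouse 2 lay above Con A + MSCs mouse 4, and the log2 fold change was 2.66 ± 0.68 in Con A + MSCs against Con A (limma, adjusted p = 0.0322) after -5.30 ± 0.68 in Con A against Control. The former was not called in 6 of 12 fits with a mouse left out, those without Con A mouse 1, 3 or 4 or Con A + MSCs mouse 1, 2 or 3. The 1 gene of this list that rose after Con A, and the 1 lower with the infused cells, was Mat1a, which makes the methyl donor and was named after its values were seen. Its log2 fold changes were 1.41 ± 0.44 (adjusted p = 0.0156) and -2.02 ± 0.44 (adjusted p = 0.0245), with overlapping groups in both. The second was lost without Con A mouse 1 or 4 or Con A + MSCs mouse 2 or 3. Mat1a stood at the largest value of the scale, 341028, in 3 of 4 Con A mice. Its scores in all 12 mice were 34530, 58393, 72892, 148316 or 341028, so its changes are moves between high steps of the scale. Gnmt, which uses the same methyl donor as Nnmt, fell by 2.30 after Con A (adjusted p = 1.2e-05) and was not called between the Con A groups (0.34 ± 0.25, adjusted p = 0.35).

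The aryl hydrocarbon receptor is bound by kynurenine and its products, and 5 of 8 genes of its list were in the table. After Con A 2 fell, 1 rose and 2 were not called, where 38.8% of all genes were called. The 1 that rose, named after its value was seen, was Tiparp, an ADP-ribosyltransferase (1.48 ± 0.51, limma adjusted p = 0.0253), whose groups overlapped. Its scores were 354, 326, 301 and 458 in Control and 891, 434, 625 and 4044 in Con A mice, so that mouse 4 stood far above the others. Without Con A mouse 4 the Tiparp change was 0.81 (adjusted p = 0.0106), and the call was lost without Control mouse 1, 2 or 3 (adjusted p up to 0.0582). Cyp1a2, a classical target in the liver, had scores of 10944, 9400, 6748 and 8898 in Control, 475, 278, 290 and 832 in Con A and 350, 590, 431 and 342 in Con A + MSCs mice. It changed by -4.39 ± 0.31 after Con A (limma, adjusted p = 6.0e-07) and by -0.02 ± 0.31 between the Con A groups. Nqo1, a quinone reductase, changed by -1.55 ± 0.20 after Con A (adjusted p = 5.6e-05) and by 0.15 ± 0.20 between the Con A groups (adjusted p = 0.638).

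**Figure D4:**
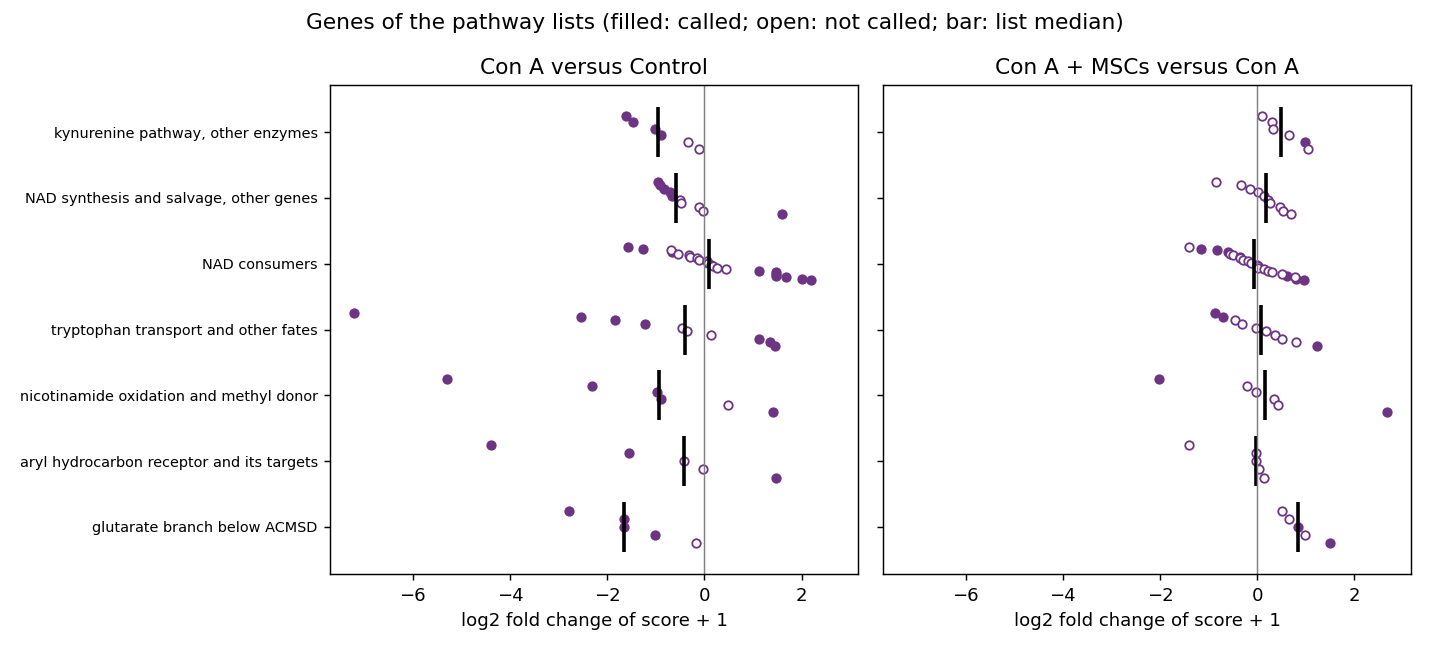
Log2 fold change of score + 1 for the genes of 7 pathway lists, in Con A against Control (left) and Con A + MSCs against Con A (right), with filled points for called genes, open points for genes not called and a bar at the list median. The kynurenine and glutarate lists, which share Aldh8a1, lie left of 0 after Con A, with medians of -0.95 and -1.65.

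The genes whose pattern over the 12 mice was most like that of a member were found by Pearson's r of log2(score + 1), given as a description. For Nampt these were Rlf (r = 0.987), Tmem71 (0.984) and Apaf1 (0.980). For Nnmt they were Npm3 (0.973), Nle1 (0.963) and Mina (0.960), and for Qprt Adrb3 (0.969), Col5a3 (0.969) and Rbfa (0.957). For Tdo2 they were Cd28 (0.982), Gm17281 (0.978) and Gpx3 (0.978), of which Cd28 had a mean score of 5 in Control mice. The points of each r share the group differences and the normalization.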

How the data were processed

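Poly-A RNA from the livers of 12 mice was read in pairs of 150 bp, and groups and replicate numbers were taken from the sample titles. The authors deposited one whole-number score for each gene and mouse. The submitters' processing notes name Bowtie2 2.2.1, RSEM 1.2.18 and mm10, and the normalization between mice is not given in the sources used here. The totals differ by 0.0425% of their median, and in each mouse 10 genes share the largest score. Of 625 genes with a score over 6000, 620 fell into 9 sets of 57 to 133 genes that shared no score below the largest with another set, with median transcript GC contents of 43.8% to 56.3%. A score is read here as a place within such a set, so a shift common to a set would not be seen, and depth, counting errors and floors are unknown. Every gene had at least 64 in 2 mice, so lower genes had been left out.

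Scores were taken as log2(score + 1), which understates changes of low genes, and fitted with limma 3.58.1 (R 4.3.3; lmFit, then eBayes with trend) with the group as the single factor and all 12 mice in the fit. The fit was also tested on simulated data, drawn as independent normal values without the steps of these scores. There, 56% of changes of 0.8 on the log2 scale and 87% of those of 1.5 were called. Of the 148 calls, 5 were false. Exact tests of 4 against 4 mice cannot go below 0.0286 and were not used. Python 3.11.15, pandas 2.3.3 and matplotlib 3.10.9 made summaries and plots. Transcripts were checked against GENCODE M21 (GRCm38), and the library kit is not described as stranded.

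The members and lists were chosen with earlier results of these data known, and no list was tested. By rule, all members, the 2 called genes of each list with the largest change after Con A, and the 3 genes most like Tdo2, Qprt, Nampt and Nnmt were named. The sirtuins, Parp12, the uncalled ADP-ribosyltransferases, Tiparp, Slc7a5, Slc3a2, Mat1a, Aldh8a1 and markers were named in addition, after their values were seen. Nothing states that mice with the same number were paired, and the labels give 4 mice per group without saying more of their origin. Alternatives were leaving out genes with a mean score under 100, a pseudocount of 10, quantile normalization, median centring, fitting only the 8 mice compared, eBayes without trend, the replicate number as a block, other thresholds and each mouse left out.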

Additional observations from a re-analysis of the deposited data

Results flagged for a closer look

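Of the 25 sets of 4 mice in which a member's scores varied, 1 had a mouse far from the other 3. It was Kmo in the Control group, where mouse 2 had 4040 and the others lay between 4743 and 4834. The gap was 0.885 of the group's range, above Dixon's 95% critical value, and chance gives about 1 such set in 20.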

How the results depend on the processing

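The 6 members called after Con A were called under each of the 9 other settings, and with each mouse left out 6 to 7 members were called. Some of these settings could hardly change the calls. Median centring gave the same values as the main fit and quantile normalization nearly the same, and an unadjusted p can only add calls. The pathway lists gave 28 to 38 calls after Con A under the 9 settings, and 32 to 38 with a mouse left out, against 37. In Con A + MSCs against Con A, the 3 calls of members became 1 (Nampt) with eBayes without a trend and 0 with only the 8 mice compared, and 0 to 5 with a mouse left out. The pathway lists, with 14 calls, had 5 at a fold change above 2, 20 at an unadjusted p and 0 to 22 with a mouse left out. In Con A + MSCs against Control, members numbered 5 to 6 under other settings and 4 to 6 with a mouse left out, and pathway genes 14 to 24 and 18 to 25. With the replicate number as a block, 6, 3 and 6 members and 38, 18 and 23 pathway genes were called in the 3 comparisons. The numbers mark different animals. Deviations of same-numbered mice correlated at 0.375 for mouse 2 and 0.244 for mouse 4 of Con A and Con A + MSCs. The other same-numbered pairs lay between -0.118 and 0.168. Differently numbered mice were not compared in this way, so whether mice of a number share more than it was not tested. Over all genes, the block gave 1297 calls in Con A + MSCs against Con A, beside 969 in the main fit. Among the refits of single members, 507 kept direction and call, 44 lost and 6 gained the call and 10 changed sign. The sign changed for Acmsd, with a mouse left out, over -0.38 to 0.36 after Con A, -0.17 to 0.31 between the Con A groups and -0.29 to 0.46 against Control, and for Qprt over -0.056 to 0.12 against Control. The causes were not tested. DESeq2 and edgeR were not run, since the table holds no counts.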
